A study of Mus musculus with 28 samples.

Results

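The genes described here encode nuclear subunits of the mitochondrial respiratory chain and of ATP synthase. They were found by symbol in the annotation of the array: Nduf followed by a, b, c, s or v and a number for complex I, Uqcr for complex III, Cox4 to Cox8 for complex IV and Atp5 for complex V. The rule found 76 of the 18193 genes on the array, with 34 genes of complex I, 8 of complex III, 17 of complex IV and 17 of complex V. Each gene was read from a single probe set: of those annotated to that gene alone, the brightest on average across the 26 tissue arrays. Ndufa4 was placed with complex I by its symbol, although it is now counted with complex IV. Ndufs6, Ndufa11, Cox7b and the 13 subunits encoded in mitochondrial DNA were not analysed here.

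Whole-tissue RNA came from BalbC nude mice, athymic animals that lack most T cells. The labels name no gene alteration in any group. Primary tumors (PT, 11 arrays, day 30) and lung metastases (LungMets, 9 arrays, day 50) grew from 50000 cells of JygMC(A), a line of mouse mammary carcinoma placed in the 4th mammary gland, which by the methods of the study carries a green fluorescent protein and luciferase reporter. Normal mammary gland (NMG, 3 arrays) and normal lung (NL, 3 arrays) came from healthy mice of the same strain. The same line was also measured in culture, with 1 array of a monolayer and 1 array of 3D spheres. All tumors descend from a single line, and tumor fragments may share a mouse, because the labels do not name the animal of each replicate. The p-values therefore measure the spread between samples. The labels give each array a date. PT and LungMets were each spread over the first 2 dates, whereas NL and NMG each had a date of their own. Tissue and date thus cannot be told apart in any comparison with NMG or NL.

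Complex I passes electrons from NADH to ubiquinone, complex III passes them on to cytochrome c, and complex IV hands them to oxygen. The protons pumped along the way drive ATP synthase, complex V. Several complex IV subunits exist as paralogs: a general form found in most tissues and a form used in heart, skeletal muscle and brown fat (Cox6a2, Cox7a1, Cox8b), in testis (Cox6b2, Cox7b2, Cox8c) or in lung (Cox4i2). The membrane ring of ATP synthase is built from the c subunit, whose mature protein is identical whether it comes from Atp5g1, Atp5g2 or Atp5g3. White adipocytes hold few mitochondria, and brown adipocytes and heart muscle cells are packed with them.

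A few subunit genes are shown by the 250 bases before their RefSeq transcription start in build GRCm38.p6, printed 5′ to 3′ on the strand of the gene. The Atp5g genes are shown because they make the same ring protein and behaved differently, and Cox7a1 and Cox8b because they had the largest differences between tissue and tumor. Capitals mark a match to the NRF1 motif GCGCATGCG or to the ESRRA motif TCAAGGTCA on either strand. The stretches lie at chr11:96075632-96075881 (minus strand) for Atp5g1, chr15:102671048-102671297 (minus) for Atp5g2, chr2:73911327-73911576 (minus) for Atp5g3, chr7:30183921-30184170 (plus) for Cox7a1 and chr7:140900447-140900696 (minus) for Cox8b.
Atp5g1: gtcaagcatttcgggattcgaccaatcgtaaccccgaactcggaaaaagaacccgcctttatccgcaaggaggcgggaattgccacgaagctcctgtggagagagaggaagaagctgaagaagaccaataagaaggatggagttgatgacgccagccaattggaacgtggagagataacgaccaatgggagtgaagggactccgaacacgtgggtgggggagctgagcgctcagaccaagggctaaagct
Atp5g2: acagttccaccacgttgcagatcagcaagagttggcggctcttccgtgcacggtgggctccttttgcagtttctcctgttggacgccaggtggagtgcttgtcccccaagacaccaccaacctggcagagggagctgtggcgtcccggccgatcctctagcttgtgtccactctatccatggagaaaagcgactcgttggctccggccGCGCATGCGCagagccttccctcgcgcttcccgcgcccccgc
Atp5g3: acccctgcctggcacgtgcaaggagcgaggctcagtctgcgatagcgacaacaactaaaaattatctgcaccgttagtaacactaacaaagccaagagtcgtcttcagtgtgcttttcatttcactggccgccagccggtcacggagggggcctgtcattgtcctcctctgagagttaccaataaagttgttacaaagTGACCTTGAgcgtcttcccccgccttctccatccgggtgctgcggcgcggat
Cox7a1: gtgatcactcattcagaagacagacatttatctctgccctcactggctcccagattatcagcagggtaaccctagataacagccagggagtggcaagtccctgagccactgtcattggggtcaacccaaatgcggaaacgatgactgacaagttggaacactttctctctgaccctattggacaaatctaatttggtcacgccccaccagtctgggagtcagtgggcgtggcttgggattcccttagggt
Cox8b: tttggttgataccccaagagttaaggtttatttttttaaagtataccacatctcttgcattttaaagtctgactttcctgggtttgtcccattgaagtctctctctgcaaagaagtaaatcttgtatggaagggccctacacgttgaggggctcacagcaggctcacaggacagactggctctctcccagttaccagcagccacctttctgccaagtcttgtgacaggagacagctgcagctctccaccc

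Atp5g2 carried the NRF1 letters from 42 bases before its start, in overlapping matches on both strands, and Atp5g3 carried the ESRRA letters from 52 bases before its start. The stretches of Atp5g1, Cox7a1 and Cox8b matched neither motif, nor CCGGAAGT (ETS factors such as GABPA) or AAGATGGCG (YY1). CG dinucleotides numbered 15 in the stretch of Atp5g1, 19 in that of Atp5g2, 15 in that of Atp5g3, 4 in that of Cox7a1 and 1 in that of Cox8b. Among the 63 member genes with a window of 300 bases around the start, the NRF1 letters were found in 11.1%, the YY1 letters in 9.52%, the ETS letters in 7.94% and the ESRRA letters in 1.59%. The shares among the 14368 genes of the array with a window were 3.1%, 2.54%, 6.65% and 0.404%. A match describes letters only, and 45 of the 63 members had none of these motifs.

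Array medians lay between 5.00 and 5.18 on the log2 scale. Of the 76 members, 69 had a mean above the median gene, and 2 (Ndufb4 and Cox7b2) stayed below every array median in all groups. In 7 members at least 1 group mean lay below the highest array median. PT replicate 5 and LungMets replicate 9 stood closest to the mean of another group. The mean of 11 lung epithelium genes was 10.6 in PT replicate 5, against 5.36 to 7.34 in the other PT, and 6.91 in LungMets replicate 9, against 10.4 to 11.3 in the other LungMets. Among normal tissues, the brown fat uncoupling protein Ucp1 read 10.76 in NMG replicate 3 beside 6.86 and 6.06 in the other NMG, and 9.76 in NL replicate 1 beside 4.48 and 7.08. The mean of 12 skeletal muscle genes was 7.54 in PT replicate 1, against 4.36 to 5.70 in the other PT. It was 7.46 in NL replicate 3, beside 4.77 and 4.55. PT replicate 1 also had the highest Cox6a2 (7.11) and Cox8b (6.005) of the PT, and the part of skeletal muscle in them was not tested. PT replicate 5 and LungMets replicate 9 thus went against their labels, and whether the 2 were exchanged was not tested. Every array stayed in the fit under its label. Some counts without single arrays stand beside the results, and the ranges with each array left out are given at the end.

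The subunit genes were highest in NMG and lowest in NL, with both kinds of tumor in between. Each gene was set against its own mean over the 26 tissue arrays, and the median over the 76 genes was taken on each array. This relative log2 level was 0.09, 0.19 and 0.38 in the 3 NMG, from -0.09 to 0.15 with a median of 0.03 in the 11 PT, from -0.25 to 0.07 with a median of -0.01 in the 9 LungMets, and -0.11, -0.40 and -0.38 in the 3 NL. NMG and NL did not overlap, whereas the lowest NMG lay within the range of PT. Across all tissue arrays complex III covered the widest range, with 0.25 to 0.64 in NMG and -0.60 to -0.04 in NL. Complex IV covered the narrowest, with 0.03 to 0.13 in NMG and -0.33 to -0.03 in NL. In whole tissue, fewer cells of a type and less RNA per cell cannot be told apart.

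**Figure D1:**
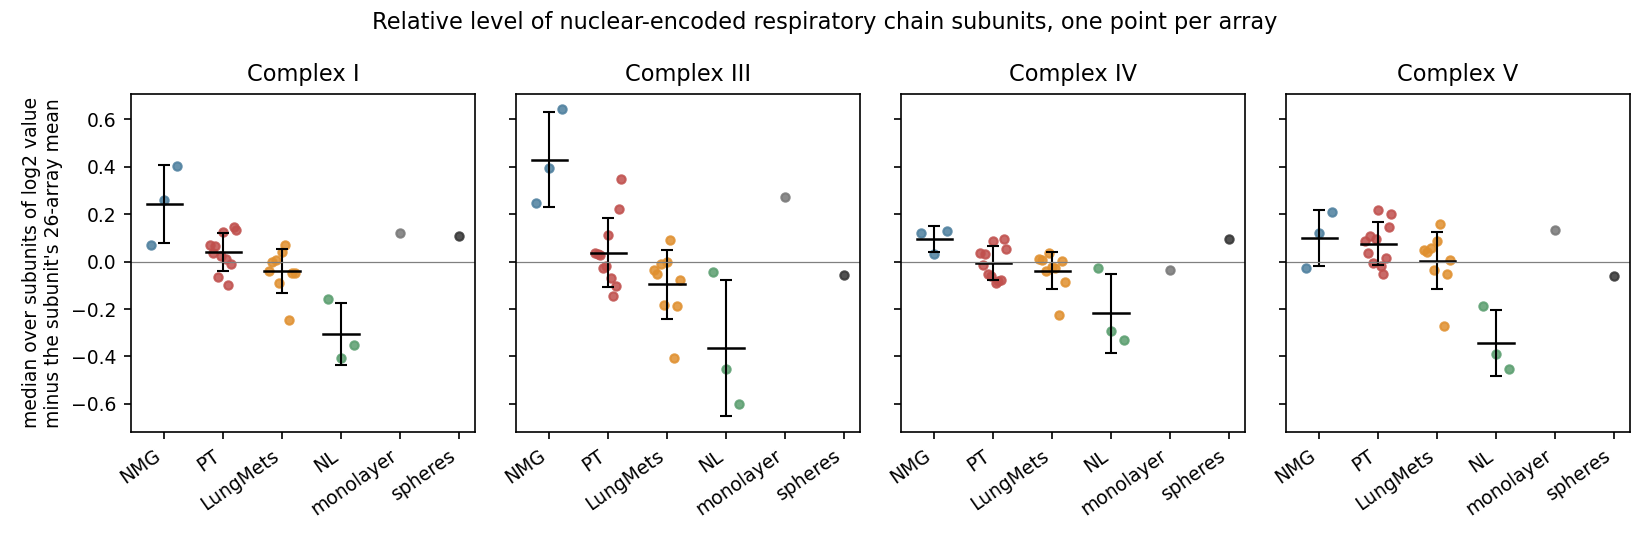
Relative log2 level of the subunits of each complex on every array: each point is the median, over the subunits of that complex, of the log2 value minus the subunit's mean over 26 tissue arrays. Bars give the mean and SD of a group, the cell cultures have 1 array each, and for complex III the 3 NMG lie from 0.25 to 0.64 and the 3 NL from -0.60 to -0.04.

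PT against NMG asks how the tumor differs from the gland in which it grew. In PT, 28 of the 76 subunit genes were lower and 6 were higher (limma, adjusted p under 0.05), where 21% of all genes were called lower and 26.7% higher. The median log2 difference was -0.17 over the members and 0.09 over all genes. By complex, the lower genes were 15 of 34 in complex I with 1 higher, 4 of 8 in complex III with 0 higher, 7 of 17 in complex IV with 3 higher, and 2 of 17 in complex V with 2 higher. Without NMG replicate 3, the gland with the most Ucp1, 15 members were called lower and 3 higher, and without NMG replicate 2 the count of higher genes was also 3. Without NMG replicate 3 and NL replicate 1 together, 17 were called lower.

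Ndufv3, an accessory subunit of the NADH-binding module of complex I, read 10.99, 10.90 and 11.28 in NMG, and 9.55 to 9.86 with a median of 9.70 in PT. Its groups did not overlap, and it was lower in PT by a log2 difference of -1.36 (SE 0.135, limma adjusted p = 1.17e-08). Ndufs5, another accessory subunit, read 10.20, 10.12 and 10.50 in NMG and 8.92 to 9.24 in PT, a difference of -1.17 (SE 0.11, limma adjusted p = 9.57e-09). Ndufa3 fell by 0.91 on the log2 scale, with 1 of its 3 probe sets called in the opposite direction. In complex III the core protein Uqcrc2 read 10.89, 11.02 and 11.44 in NMG and 10.20 to 10.62 in PT, and the difference was -0.74 (SE 0.12, limma adjusted p = 1.02e-05). Uqcrb fell by 0.73 on the log2 scale, and all 11 PT lay below the 3 NMG for both genes. Uqcrq (-0.48) and Uqcrfs1 (-0.44) completed the falls of complex III, but 2 of the 4 probe sets of Uqcrq were called in the opposite direction.

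Among the 3 genes of the c subunit, only Atp5g1 was called in PT against NMG, and its rise was the largest of the 76 members there. It read 9.32, 9.76 and 9.20 in NMG, 9.42, 9.14 and 9.002 in NL, 10.38 to 11.52 with a median of 11.12 in PT, and 9.82 to 11.49 with a median of 10.79 in LungMets. Every tumor array lay above every normal array. The log2 difference was 1.58 in PT against NMG, or 2.99-fold (SE 0.26, limma adjusted p = 1.82e-05). It was 1.55 in LungMets against NL, or 2.93-fold (SE 0.26, limma adjusted p = 3.39e-05). Group means were 11.01 (SD 0.40) for PT, 10.74 (SD 0.49) for LungMets, 9.43 (SD 0.29) for NMG and 9.19 (SD 0.22) for NL. Neither PT and LungMets (limma adjusted p = 0.335) nor NMG and NL (limma adjusted p = 0.67) differed beyond their spread. Atp5g2 had a difference of -0.17 (limma adjusted p = 0.155) and Atp5g3 of -0.17 (limma adjusted p = 0.136) in PT against NMG. The other probe set of Atp5g1 averaged 3.48, near the low-signal reference genes at 2.86 to 3.23, and with the mean of both probe sets the differences against normal tissue were 0.88 for PT and 0.81 for LungMets, still called. The cultured cells read 10.77 as a monolayer and 10.51 as spheres, inside the range of PT.

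**Figure D2:**
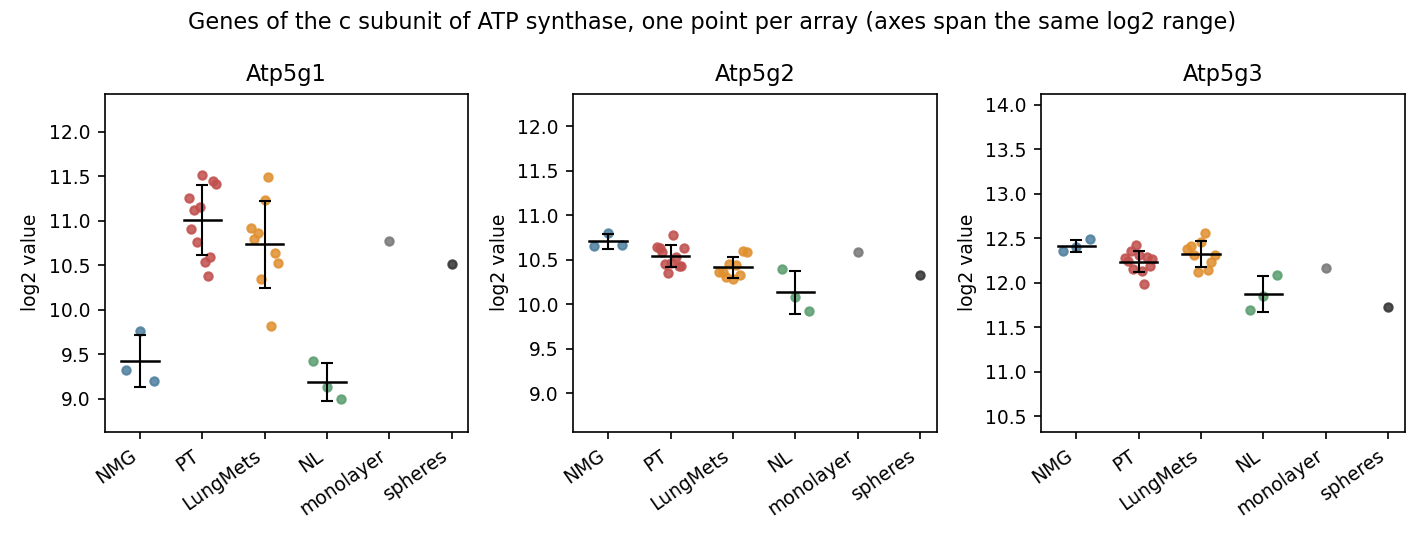
Log2 value of the 3 genes of the c subunit of ATP synthase on every array, with the mean and SD of each group and axes that span the same log2 range. All PT and LungMets lie above all NMG and NL for Atp5g1, at 9.82 or more against 9.76 or less, which is not so for Atp5g2 and Atp5g3.

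The rest of complex V differed little between PT and NMG: Atp5a1 and Atp5c1, of the catalytic head, fell by 0.23 and 0.27 on the log2 scale, and Atp5mpl, a small membrane subunit, rose by 0.43. When the probe sets whose names end in _x_at or _s_at were avoided, Atp5a1 and Atp5c1 were no longer lower in PT. Complex IV was divided between general and tissue forms. Of the general forms, Cox5b (-0.41), Cox6a1 (-0.35), Cox6b1 (-0.46) and Cox8a (-0.39) were lower in PT. The calls of Cox6a1 and Cox8a were lost without NMG replicate 3, and that of Cox5b was lost when _x_at and _s_at probe sets were avoided (-0.23, limma adjusted p = 0.114). Cox4i1, Cox5a, Cox6a2, Cox6c, Cox7a2, Cox7b2 and Cox7c were not called, with log2 differences between -0.12 and 0.13. The 3 rises of complex IV were those of Cox8c at 0.56, of Cox7a2l, which joins complexes III and IV into supercomplexes, at 0.37, and of Cox4i2 at 0.34. Cox4i2, known as a lung form, averaged 5.17 in NMG, 5.51 in PT, 5.63 in LungMets and 5.43 in NL. These values lie near the array medians, and Cox4i2 was not called in NL against NMG. The call of Cox7a2l was lost without NMG replicate 2 or 3, and that of Atp5mpl in 7 of 14 cases with 1 array left out.

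Among the tissue forms, Cox6b2 was lower by -0.68 (SE 0.24, limma adjusted p = 0.0251), a call that was lost without NMG replicate 3 and NL replicate 1 (limma adjusted p = 0.0778). It read at most 4.87 in PT, below every array median, and 5.12 to 5.22 in NMG, near them. The difference thus rests on a low signal. The largest falls were those of Cox8b and Cox7a1, whereas the other muscle form, Cox6a2, was not called. Cox8b read 9.78, 9.78 and 11.17 in NMG, against 4.36 to 6.005 with a median of 4.81 in PT. The difference was -5.24, or 37.8-fold (SE 0.35, limma adjusted p = 1.16e-11). Cox7a1 read 6.35, 6.19 and 8.90 in NMG and 3.47 to 4.80 in PT, a difference of -3.16 or 8.91-fold (SE 0.38, limma adjusted p = 2.31e-07). In PT, Cox7a1 lay below all array medians and Cox8b near them, so that both folds rest on a low signal and may understate the difference. For both genes the highest NMG was replicate 3, which also had the highest Ucp1. Without NMG replicate 3 and NL replicate 1, the difference was -4.78 for Cox8b and -2.28 for Cox7a1. The mean of 10 adipocyte genes was 11.1 to 11.8 in NMG and 5.63 to 6.88 in PT, with all 10 genes lower in PT. The mean of 9 brown and beige adipocyte genes was 5.52 to 7.14 in NMG and at most 5.49 in PT, with 4 of them lower and 1 higher in PT. Zic1 of that list lay between 2.57 and 2.82 in all 6 normal arrays, at the level of the low-signal reference. The part of fat cells in these differences was not tested.

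**Figure D3:**
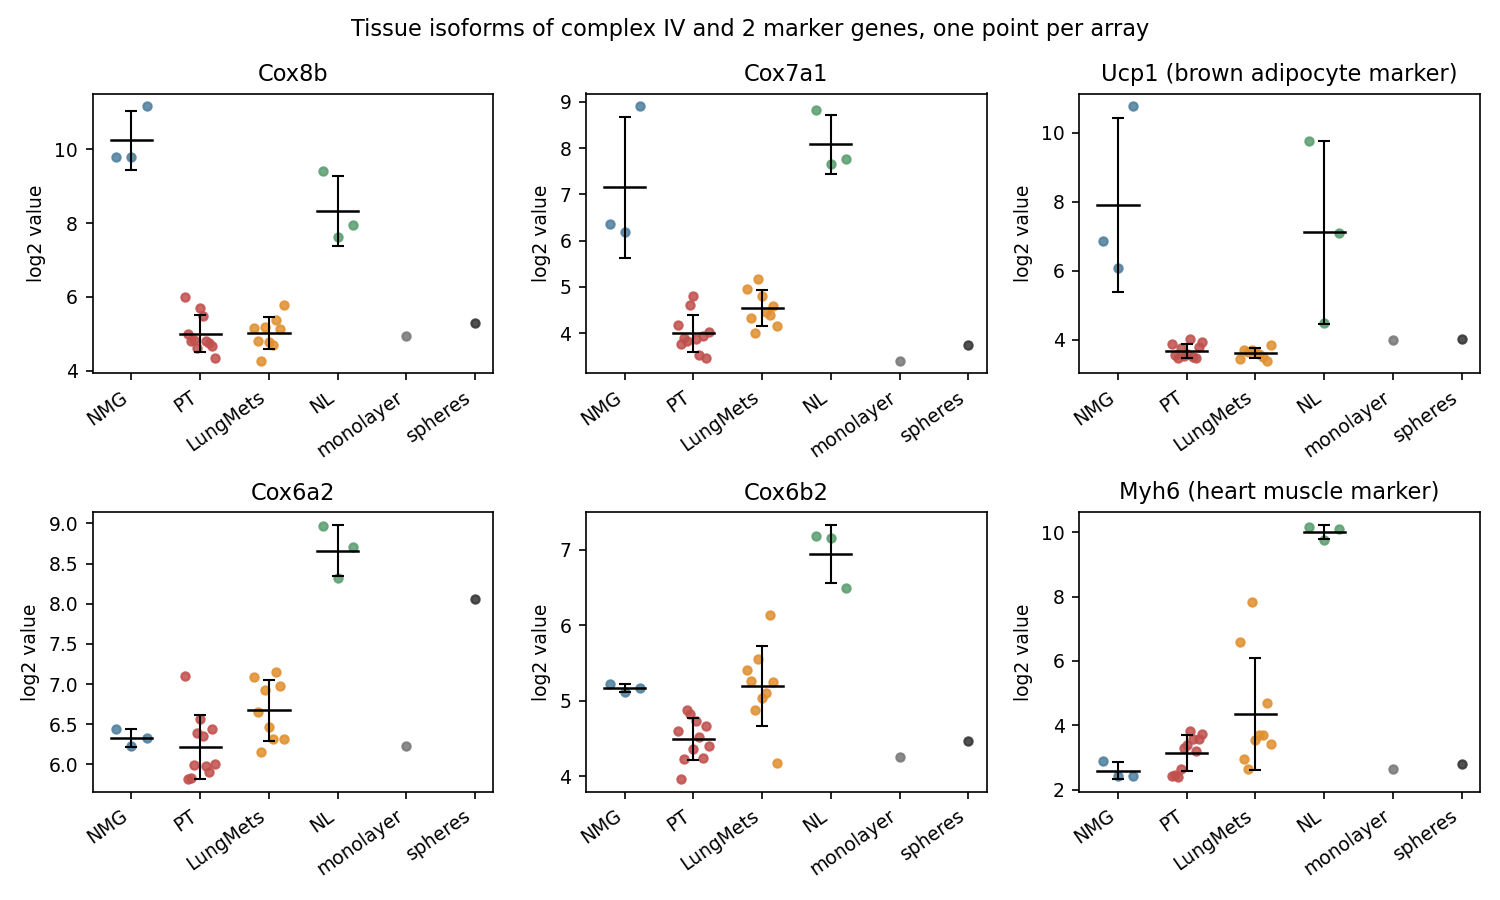
Log2 values of 4 tissue forms of complex IV subunits, of the brown adipocyte marker Ucp1 and of the heart muscle marker Myh6 on every array, with the mean and SD of each group. For Cox8b, Cox7a1 and Ucp1 the highest NMG is replicate 3 and the highest NL is replicate 1, and the 3 NL stand above all other tissue arrays for Cox6a2, Cox6b2 and Myh6.

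LungMets against NL asks how the tumor in the lung differs from lung tissue. In LungMets, 36 of the 76 genes were higher and 7 were lower, where 23.8% of all genes were called higher and 22.4% lower. The median difference was 0.27 over the members and 0.05 over all genes. Complex V rose most widely, with 13 of 17 genes higher and 0 lower, followed by 14 of 34 higher and 2 lower in complex I, 3 of 8 higher and 1 lower in complex III, and 6 of 17 higher and 4 lower in complex IV. Without NL replicate 2 the count of higher genes was 22, and without NL replicate 3 it was also 22. Without NL replicate 1, the lung with the most Ucp1, it was 42.

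Ndufb6, a subunit of the membrane arm of complex I, read 8.66, 9.82 and 9.82 in NL and 10.41 to 10.92 in LungMets, a difference of 1.26 (SE 0.18, limma adjusted p = 2.69e-06). Cox5a, a general subunit of complex IV, read 10.50, 11.20 and 11.24 in NL and 11.61 to 12.06 in LungMets, a difference of 0.94 (SE 0.13, limma adjusted p = 2.52e-06). In both genes NL replicate 1 was the lowest array, although it had the highest relative level of the 3 NL over all members. Atp5mpl rose by 1.04, Ndufb1 by 0.86 and Atp5o, of the stalk of ATP synthase, by 0.67. Uqcrh, the hinge protein of complex III, rose by 0.60, and the Rieske protein Uqcrfs1 by 0.49. The call of Uqcrh was lost when _x_at and _s_at probe sets were avoided (0.21, limma adjusted p = 0.154). Ndufb1 read 5.07 to 5.23 in NL, near the array medians, so that its rise starts from a low signal. Ndufa12 was called higher in LungMets (0.83) and in PT against NMG (0.25), but of its 4 probe sets 3 were called in the opposite direction for PT and 1 for LungMets. The lower genes were the tissue forms Cox7a1 (-3.53), Cox8b (-3.31), Cox6a2 (-1.99) and Cox6b2 (-1.75), and Ndufs5 (-0.73), Ndufv3 (-0.62) and Uqcrb (-0.35). The call of Uqcrb was lost with the mean of its probe sets (-0.062, limma adjusted p = 0.688). It was also lost without NMG replicate 3 and NL replicate 1 together (limma adjusted p = 0.0543). Beside these lower genes, 9 of 12 heart muscle genes (list median -2.66), 9 of 10 adipocyte genes (-1.67), 3 of 9 brown and beige adipocyte genes and 12 of 12 endothelium genes (-2.12) were lower in LungMets, with 0 higher in each list. Their part in the fall of the tissue forms was not tested.

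PT against NMG and LungMets against NL share no array. Of the 6 members higher in PT against NMG, 5 (83.3%) were also higher in LungMets against NL. They were Atp5g1, Atp5mpl, Cox7a2l, Cox8c and Ndufa12, and made up 13.9% of the 36 higher in LungMets. Of the 28 members lower in PT, 6 (21.4%) were also lower in LungMets. They were Cox6b2, Cox7a1, Cox8b, Ndufs5, Ndufv3 and Uqcrb, and made up 85.7% of the 7 lower in LungMets. Another 7 of the 28 (25%) were higher in LungMets against NL: Atp5a1, Atp5c1, Cox5b, Ndufa9, Ndufs3, Uqcrfs1 and Uqcrq. Among all genes, 61.4% of those higher in PT were also higher in LungMets, and 54.8% of those lower in PT were also lower. Another 3.19% of those lower in PT were higher in LungMets. By the LungMets lists, 68.8% of all higher genes were also higher in PT, and 51.3% of all lower genes were also lower in PT.

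The difference between the tumor and the normal tissue was compared between the organs for the 20 paralog genes of complex IV and of the c subunit. The contrast was PT minus NMG, less LungMets minus NL. Over the 76 members it was called below 0 for 39 and above 0 for 2 (limma, adjusted p under 0.05). Called or not, it lay below 0 for 70 members and above 0 for 6. Among the paralog genes it was called below 0 for 9 genes and above 0 for 2. Of all genes, 10.1% were called below 0 and 9.68% above 0. General forms stood among the 9: Cox5a (-0.81, SE 0.18), Cox5b (-0.72, SE 0.13), Cox6a1 (-0.59), Cox8a (-0.57), Cox4i1 (-0.47) and Cox6b1 (-0.41), with Atp5g3 (-0.62), Atp5g2 (-0.45) and the muscle form Cox8b (-1.93, SE 0.50). Cox6a2 (1.88, SE 0.33) and Cox6b2 (1.07, SE 0.35) had larger falls in lung. For Atp5g1 the contrast was 0.03 (SE 0.37, limma adjusted p = 0.977), and for Cox7a1 it was 0.38 (SE 0.54, limma adjusted p = 0.729). The count called below 0 was 5 without NL replicate 2 and 4 without NL replicate 3. The count called above 0 was 1 without NL replicate 1, NL replicate 2, NMG replicate 1 or NMG replicate 2. It was also 1 without NMG replicate 3 and NL replicate 1 together.

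Normal lung and normal mammary gland differed most evenly. In NL, 52 of the 76 genes were lower and 2 were higher than in NMG, where 14.5% of all genes were called lower and 14.3% higher, and the median difference was -0.52 over the members and -0.01 over all genes. Complex I had 26 of 34 genes lower, complex III 7 of 8, complex IV 7 of 17 and complex V 12 of 17. The count of lower genes was 43 without NMG replicate 3 and 58 without NL replicate 1. Beside them, 10 of 10 adipocyte genes (list median -3.58) and 5 of 8 lymphocyte genes were lower, and 12 of 12 endothelium genes (2.29) were higher. The part of the cell makeup of the organs in the subunit levels was not tested. The Rieske protein Uqcrfs1 read 9.95, 9.44 and 9.43 in NL and 10.54, 10.63 and 11.14 in NMG, a difference of -1.16 (SE 0.21, limma adjusted p = 0.000147). Ndufa10 (-0.97), Ndufs1, which carries iron-sulfur clusters (-0.97), Cox5a (-0.97), Atp5b, the catalytic beta subunit (-0.78), and Cox4i1 (-0.55) were lower as well.

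The 2 higher genes were tissue forms. Cox6a2 read 8.96, 8.32 and 8.70 in NL and 6.44, 6.23 and 6.33 in NMG, a difference of 2.33 or 5.03-fold (SE 0.29, limma adjusted p = 6.82e-07). Cox6b2 read 7.18, 7.16 and 6.49 in NL and 5.22, 5.12 and 5.17 in NMG, a difference of 1.78 (SE 0.31, limma adjusted p = 6.94e-05). Cox8b was lower in NL by -1.91 (SE 0.44, limma adjusted p = 0.00153), and Cox7a1, at 8.81, 7.66 and 7.75 in NL, was not called (0.93, limma adjusted p = 0.159), but was called without NMG replicate 3 and NL replicate 1 (1.43, limma adjusted p = 0.00486). In Cox8b and Cox7a1 NL replicate 1 was the highest NL, as it was in Ucp1. Beside these differences, 10 of 12 heart muscle genes were higher in NL than in NMG, and their mean was 7.81 to 8.16 in NL and 4.11 to 4.26 in NMG. Myh6, the atrial myosin heavy chain, averaged 10.01 in NL and 2.59 in NMG, while the ventricular light chain Myl2 stayed between 3.15 and 3.25 in NL. The part of heart muscle cells in the level of Cox6a2 was not tested.

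**Figure D4:**
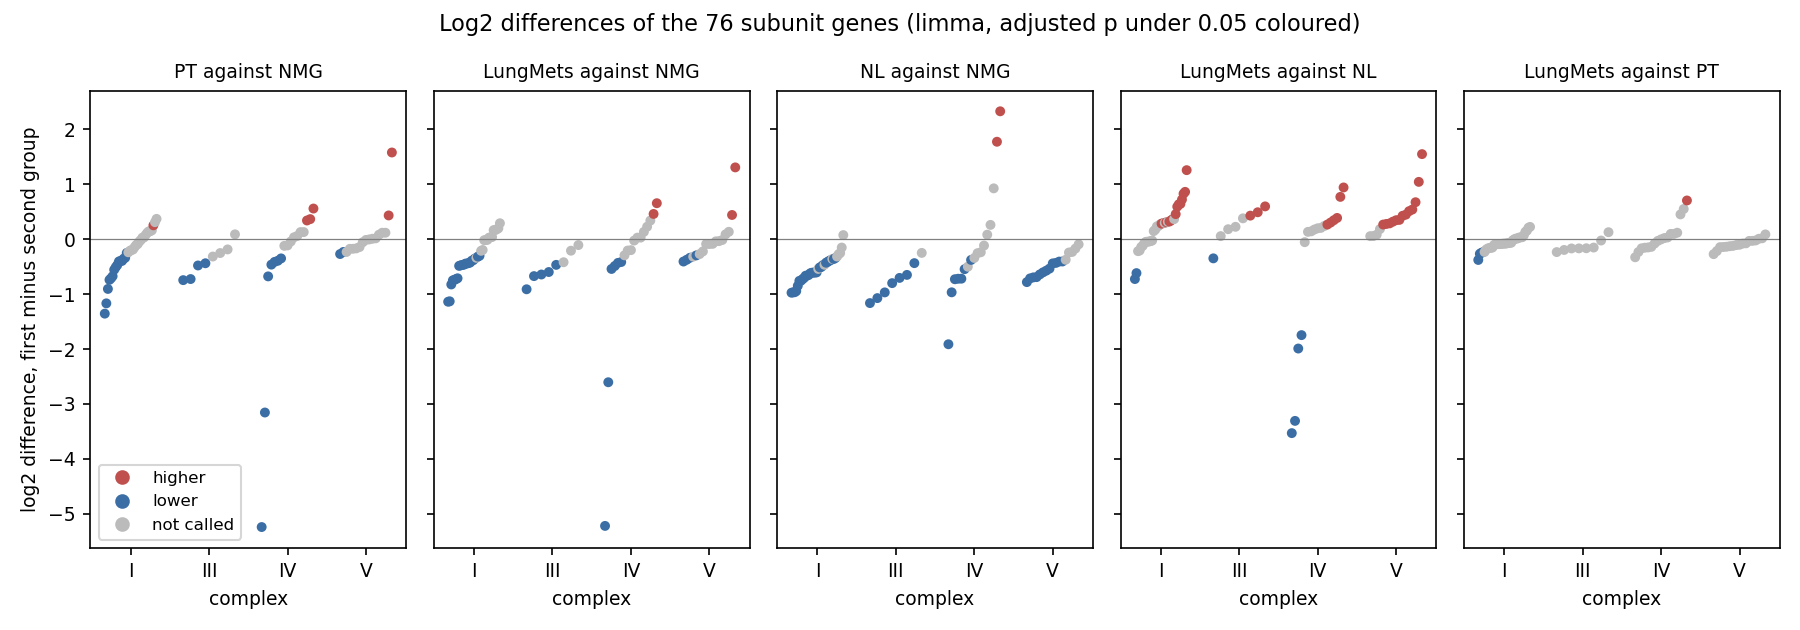
Log2 differences of the 76 subunit genes in 5 comparisons, 1 point per gene, grouped by complex and sorted within it, coloured where limma's adjusted p was under 0.05. Most coloured points lie below 0 against NMG and above 0 in LungMets against NL, and Atp5g1 is the topmost point of complex V at 1.58 for PT and NMG and at 1.55 for LungMets and NL.

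LungMets against PT compares lung metastases at day 50 with primary tumors at day 30. Site, day and the removal of the primary tumor, which the methods of the study describe, cannot be told apart here. Few subunit genes moved. Of the 76, 1 was higher and 4 were lower, where 9.03% of all genes were called higher and 6.13% lower, and the median difference was -0.08 over the members and -0.02 over all genes. Cox6b2 read 3.96 to 4.87 with a median of 4.51 in PT and 4.17 to 6.14 with a median of 5.24 in LungMets. The difference was 0.71 (SE 0.17, limma adjusted p = 0.00556). In PT this gene lay below every array median, so that the difference rests on a low signal. The lower genes were all of complex I: Ndufb5 (-0.38), the core subunits Ndufv2 (-0.27) and Ndufv1 (-0.25), which belong to the NADH-binding module, and Ndufa9 (-0.24). With 1 of 20 arrays left out in turn, the call of Ndufv2 was lost in 11 cases and that of Ndufv1 in 7. Ndufb5 and Cox6b2 were called in all 20. With the replicate number as a block, Ndufv2 (limma adjusted p = 0.0568) and Ndufv1 (limma adjusted p = 0.118) were not called. Cox6a2, at 0.45, missed the threshold (limma adjusted p = 0.0532).

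Within the first date, with 4 PT and 4 LungMets, limma called 0 members, with 1025 of all genes higher and 367 lower. An unadjusted p under 0.05 was found for 8 members (10.5%) and for 21.7% of all genes. Within the second, with 7 PT and 5 LungMets, limma called 0 members and 0 of all genes, with an unadjusted p under 0.05 for 9 members (11.8%) and for 14.7% of all genes. Cox6b2 differed by 0.86 within the first date and by 0.60 within the second, Ndufb5 by -0.26 and -0.46, and Ndufv1 by -0.12 and -0.34. Without PT replicate 5 and LungMets replicate 9 the difference of Cox6b2 was 0.87 (limma adjusted p = 0.00012), and 3 members were called higher. The highest Cox6b2 was in LungMets replicate 7, which also had the highest lung epithelium mean, 11.3, and NL stood above every LungMets for this gene. Lung epithelium genes were higher in LungMets than in PT in 10 of 11 cases, and endothelium genes in 10 of 12. The part of surrounding lung in the level of Cox6b2 was not tested. Single arrays moved these small counts: the 4 lower genes became 2 without LungMets replicate 4 or PT replicate 11, and 1 without LungMets replicate 7 or 8. The 1 higher gene became 2 without LungMets replicate 1, 3 or 6 or PT replicate 1, 5 or 6, and 3 without LungMets replicate 5 or 9.

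LungMets against NMG, across organs, gave 35 genes lower and 4 higher of 76, where 17.9% of all genes were called lower and 23.1% higher. The median difference was -0.29 over the members and 0.10 over all genes. Complex I had 20 of 34 genes lower, complex III 5 of 8, complex IV 6 of 17 and complex V 4 of 17. This comparison shares its normal arrays with PT against NMG. Cox8b (-5.22), Cox7a1 (-2.60), Ndufs5 (-1.14), Ndufv3 (-1.13) and Uqcrc2 (-0.91) were lower, and Atp5g1 (1.31), Cox8c (0.66), Cox4i2 (0.46) and Atp5mpl (0.44) were higher.

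The cultured cells have 1 array each, so that their difference has no replicate check and no test. From monolayer to spheres, 4 of the 76 genes were past 1.5-fold higher and 5 past 1.5-fold lower, where 8.71% of all genes were higher and 11.1% lower by that measure. Cox6a2 read 6.23 in the monolayer and 8.06 in the spheres, a difference of 1.83 that put the spheres above all 11 PT, whose highest value was 7.11. Cox7a2l read 10.31 and 11.59, Ndufa6 9.86 and 10.64, and Cox7c 4.81 and 5.51, at a low signal near the array medians. The 5 lower genes were Ndufa5 (-0.88), Ndufb2 (-0.81), Atp5k (-0.76), Ndufa9 (-0.65) and Uqcrc1 (-0.62). Both cultures lay inside the range of PT for 28 members, above every PT for 5 (Cox4i2, Cox8c, Ndufa3, Ndufs7 and Uqcr10) and below every PT for 3 (Cox6c, Cox7c and Ndufb11). These shares were 36.8%, 6.58% and 3.95% of the members, and 37.4%, 16.2% and 9.26% of all genes. Cox8b, at 4.94 and 5.29, and Cox7a1, at 3.41 and 3.74, were as low in culture as in the tumors.

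Other mitochondrial genes were read from lists that do not hold the members. In PT against NMG, all 4 genes of complex II, succinate dehydrogenase, were lower, led by Sdha (-0.88) and Sdhc (-0.74). Of 14 genes of fatty acid oxidation 13 were lower and 0 higher: Cpt2, which brings fatty acids into the matrix, fell by 2.00 and the dehydrogenase Acadl by 1.83 on the log2 scale. Of 17 genes of the citric acid cycle and pyruvate entry 11 were lower and 0 higher, led by pyruvate carboxylase Pcx (-3.73), Pdhb (-1.87) and Dlat (-1.80). The list of 18 genes for mitochondrial import, chaperones and carriers went the other way, with 10 higher and 2 lower, Tomm70a (0.88) and Tomm20 (0.76) among the higher. Of 15 genes of glycolysis 7 were higher and 2 lower, with Pgk1 (1.41) and the glucose transporter Slc2a1 (1.38) among the higher. Of 39 assembly factors 7 were higher and 13 lower. Among 8 electron carriers and related proteins 4 were lower and 1 higher: the electron transfer flavoprotein subunit Etfb (-1.97) and Atpif1, an inhibitor of ATP synthase (0.70), changed most in each direction. Of 16 regulators 4 were lower, Ppargc1b (-1.08), Ppara (-1.05), Esrrg (-0.98) and Esrra (-0.32), and 1, Yy1, was higher (0.55). These were 25% and 6.25% of the regulators. Among all genes 21% were called lower and 26.7% higher in PT against NMG, so the share of lower regulators was near that of all genes.

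In LungMets against NL, complex II had 0 of 4 genes called by limma and 1 at an unadjusted p under 0.05, fatty acid oxidation had 7 of 14 lower, and the citric acid cycle had 7 higher and 4 lower of 17. The import list had 14 of 18 higher, with Tomm70a (2.01), the chaperonin Hspe1 (1.75) and Tomm20 (1.40), and glycolysis had 9 of 15 higher and 1 lower. Cycs, cytochrome c itself, rose by 1.09. In NL against NMG, complex II had 4 of 4 genes lower, the citric acid cycle 14 of 17, fatty acid oxidation 11 of 14, the import list 13 of 18 and glycolysis 9 of 15. In LungMets against PT, glycolysis had 8 of 15 lower, Pfkl (-0.76) and Pdk1 (-0.60) among them, the import list 4 of 18 and assembly factors 6 of 39, with 0 higher in each of the 3 lists. All 11 proliferation genes were higher in PT than in NMG and in LungMets than in NL. Of all genes, 23.8% were called higher and 22.4% lower in LungMets against NL. Those shares were 14.3% and 14.5% in NL against NMG, and 9.03% and 6.13% in LungMets against PT.

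**Figure D5:**
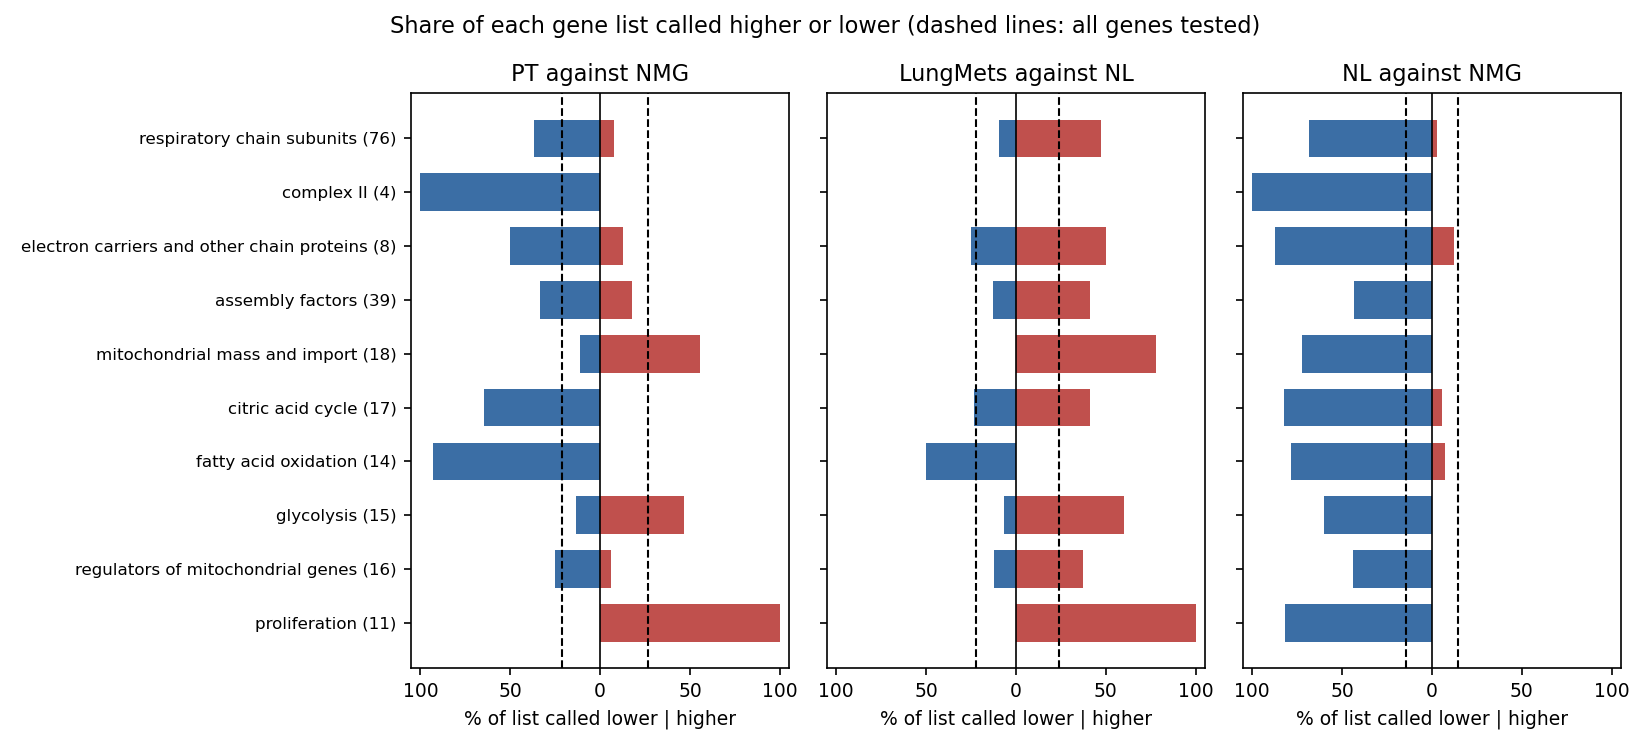
Share of the genes in each list called lower (blue, to the left) and higher (red, to the right) in 3 comparisons, with the number of genes in brackets and dashed lines at the share of all genes called. In PT against NMG the bars of complex II (4 of 4) and fatty acid oxidation (13 of 14) reach far left, and those of mitochondrial import (10 of 18) and proliferation (11 of 11) point right.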

How the data were processed

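RNA of 28 samples was hybridised to Affymetrix mouse expression arrays. The authors deposited log2 values of 45101 probe sets, made by RMA (background correction, quantile normalization and a summary per probe set), and the submitters' processing notes name Partek Genomic Suite 6.6. Of the probe sets, 34958 had 1 gene in the platform annotation and were used without 13 controls, 932 had several genes and 9211 had none listed. Each of the 18193 genes was read from its probe set with the highest mean over 26 tissue arrays. Groups followed the labels.

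One mean per group was fitted to the tissue arrays with limma 3.58.1 in R 4.3.3 (lmFit and eBayes), the Benjamini-Hochberg adjustment ran over the whole set of genes, and an adjusted p under 0.05 was called. The difference of differences between organs was read for 20 paralog genes. The fit was tested on simulated data. The number of arrays limits the precision. Promoter windows came from RefSeq, build GRCm38.p6, and 63 of 76 members matched. Figures were drawn with matplotlib 3.10.9.

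The members and gene lists were chosen with earlier results of these data known. Named in each comparison were the 3 largest rises and falls among called members of each complex, every paralog form, up to 4 called genes of each list, and single members for a value. Further lists covered skeletal muscle (12 genes, 0 called in PT against NMG by limma), smooth muscle and pericytes (12, 7 lower), lymphocytes (8, 8 lower) and a low-signal reference of 3 Y-linked genes. The labels do not pair the samples by replicate number, so the main fit used no pairing. Same-numbered deviations from the group mean correlated from -0.233 to 0.481 between LungMets and PT, over 0.1 in 7 of 9 pairs. In each other comparison the correlation was over 0.1 in 0 of 3 pairs. Same-numbered PT and LungMets share a date, and whether they share a mouse was not tested. Besides leaving out each of 26 arrays in turn, 17 alternatives were tried: probe set rules, scaling, a filter on low values, array weights, other variance models, ordinary ANOVA (the methods' test), a fold threshold, date, replicate block and pairs of arrays left out.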

Additional observations from a re-analysis of the deposited data

Results flagged for a closer look

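Of 48 sets of values tested for an array far from the rest of its group, 7 had one; chance flags about 1 in 20 groups, and the values below are not independent. LungMets replicate 5 had the highest Cox4i2, 6.01, where the other LungMets lay between 5.47 and 5.73. LungMets replicate 7 had the lowest Ndufa12, 10.53 against 10.86 to 11.18, and the lowest Atp5k, 10.90 against 11.25 to 11.49. Its relative log2 level was also the lowest of the LungMets over the members of complex I (-0.25, others -0.09 to 0.07), complex IV (-0.22, others -0.09 to 0.04), complex V (-0.27, others -0.05 to 0.16) and all members (-0.25, others -0.07 to 0.07). The same array had the highest lung epithelium mean of the LungMets, 11.3, and the lowest proliferation mean, 8.17; their part in its low subunit values was not tested.

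The difference between tumor and normal tissue differed between mammary gland and lung, by limma's contrast, for 11 of the 20 paralog genes. The value was -0.47 for Cox4i1, -0.81 for Cox5a, -0.72 for Cox5b, -0.59 for Cox6a1, 1.88 for Cox6a2, -0.41 for Cox6b1, 1.07 for Cox6b2, -0.57 for Cox8a, -1.93 for Cox8b, -0.45 for Atp5g2 and -0.62 for Atp5g3. Each normal tissue had a date of its own, so that organ and date cannot be told apart in these values.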

How the results depend on the processing

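With a fold over 2 required as well, members called higher and lower were 1 and 4 in PT against NMG and 0 and 0 in LungMets against PT. They were 3 and 4 in LungMets against NL and 1 and 4 in LungMets against NMG. In NL against NMG 3 were called lower, and 1 paralog gene was called below 0 in the difference of differences. Without NMG replicate 3 and NL replicate 1 together, an alternative chosen after seeing the data, 17 were called lower in PT against NMG. In the same fit 3 were called higher in LungMets against PT and 1 paralog gene was called above 0. LungMets against PT depended most on the setting: 2 higher and 1 lower after quantile normalization once more, 2 higher and 1 lower with the replicate block, 3 higher with only these groups, with array weights or without PT replicate 5 and LungMets replicate 9, 2 higher with date as a fixed term, and 0 and 0 within each date. Among genes above the median mean, 4 were called lower in LungMets against NL and 1 higher in NL against NMG. Of the paralog genes 1 was called above 0 there. With array weights, 8 were higher in LungMets against NMG and 4 in NL against NMG. The replicate block moved no other count of calls by over 1.5 times. Under it Ndufv2 (-0.23, limma adjusted p = 0.0568) and Ndufv1 (-0.23, limma adjusted p = 0.118) were not called in LungMets against PT; in both groups replicates 1 to 4 share the first date and later numbers the second.

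With single arrays left out, members higher and lower ranged from 3 to 6 and from 15 to 31 in PT against NMG (median difference -0.23 to -0.09). They ranged from 1 to 3 and from 1 to 4 in LungMets against PT (-0.10 to -0.05), from 22 to 42 and from 6 to 8 in LungMets against NL (0.23 to 0.36), from 3 to 4 and from 25 to 37 in LungMets against NMG (-0.33 to -0.23), and from 2 to 3 and from 43 to 58 in NL against NMG (-0.58 to -0.47). Paralog genes called above and below 0 ranged from 1 to 2 and from 4 to 9.

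Reversed values came from probe set rules. With the mean of all probe sets, PT against NMG gave -0.45 for Ndufa12 and 0.15 for Uqcrq, LungMets against NL gave -0.052 for Ndufa12, and LungMets against NMG gave 0.047 for Uqcrq. Without probe sets ending in _x_at or _s_at, PT against NMG gave -1.50 for Ndufa12, 0.15 for Uqcrq, 0.24 for Atp5c1 and 0.11 for Atp5a1, LungMets against NL gave -1.71 for Ndufa12, and LungMets against NMG gave 0.13 for Uqcrq and 0.0032 for Atp5c1. Of 2300 values of named genes under the other settings, 2107 kept their call and direction or were called in neither fit, 142 lost the call, 40 gained one and 11 reversed; of 2306 with 1 array left out, 2191 kept it, 101 lost it, 14 gained one and 0 reversed. Unless the probe sets show it, the cause was not tested. Ndufb4 and Cox7b2 lay below every array median in all groups, where a difference is harder to detect.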
